A study of Mus musculus with 6 samples.

Results

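The genes described here are 9 receptors of leukocyte homing and egress, chosen by symbol: Cxcr3, Cxcr4, Cxcr6, Ccr2, Ccr7, Ccr9 and Cx3cr1 for chemokines, and S1pr1 and S1pr5 for sphingosine 1-phosphate. All 9 were found by Ensembl ID among the 55401 gene IDs of the deposited count table. The study sequenced bulk RNA from 2000 sorted mouse bone marrow cells per library, with 2 groups of 3 libraries, all labelled wild type. The LSK group held untreated cells sorted as Lin-Sca-1+c-Kit+ (lineage-negative cells with both Sca-1 and c-Kit) from C57BL/6 mice that were 6 to 8 weeks old. Cells of the ESC-derived group were sorted as Lin-Sca-1+c-Kit- (lineage-negative cells with Sca-1 and without c-Kit), from the marrow of primary recipients that had been given sorted CD144-positive cells made by differentiating embryonic stem cells. The 2 groups thus differ in the c-Kit gate, the source of the cells and the transplantation together, and these cannot be told apart. The recipients' strain and age, and whether the sort separated donor from host cells, were not given in the sources used here. Nothing in the labels says that libraries came from separate animals, so p-values measure the spread between these libraries, which may be technical.

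Chemokine receptors are G protein-coupled receptors that steer migrating leukocytes along gradients of small secreted proteins, and sphingosine 1-phosphate receptors guide cells out of tissues into blood and lymph, where that lipid is abundant. In marrow, CXCR4 holds stem and progenitor cells near CXCL12-producing stroma. In T cells the same families separate subsets: CCR7 and S1PR1 go with recirculation through lymph nodes, CXCR3 and CCR2 with entry into inflamed tissue, CCR9 with the gut and thymus, CXCR6 with cells that stay in tissues, and CX3CR1 and S1PR5 with effector cells in blood.

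The libraries held 41580006 to 49269286 estimated counts. Levels are given in CPM, counts scaled to sequencing depth, on libraries adjusted by the TMM method. Kit, the gene of the c-Kit gate, averaged 48.7 ± 6.38 CPM across the LSK libraries and 0.0896 ± 0.0398 CPM across the ESC-derived libraries (mean ± SD, with n = 3 libraries in each group for all values of this kind). LSK replicate 2 lay between LSK replicates 1 and 3 for 62.8% of tested genes and for 6 of the 9 receptors. Any other library lay between the others of its group for 19.9 to 40.8% of genes. Whether LSK replicate 2 is independent of LSK replicates 1 and 3 was not tested, and n = 3 counts it in full. The edgeR calls were therefore also made without LSK replicate 2, while sums, shares, level orders and patterns used all 6 libraries. The markers did not all go with the sort labels. All 13 T cell markers listed were higher in ESC-derived cells, where 14.8% of all tested genes were higher and 15.2% lower. They summed to 14142 to 14873 CPM against 230 to 267 CPM in LSK cells. Of 7 NK cell markers, 6 were tested and 6 were higher (464 to 572 against 21.8 to 23.1 CPM), and of 9 stem and progenitor markers 8 were lower and 1 higher (45.1 to 94.8 against 965 to 1045 CPM), with Hoxa9 at 0 in ESC-derived cells. Among the NK cell markers, Klre1 and Klrg1 passed the filter on low counts only with the ESC-derived libraries. The 8 stem and progenitor markers that were lower passed it only with the LSK libraries. Neutrophil markers summed to 2179 to 4289 CPM in ESC-derived and 1052 to 1171 CPM in LSK libraries. Of these 8 markers, 6 passed as higher, while Mpo and Elane did not pass and lay below every LSK value. Ly6g, 1 of the 6, passed the filter on low counts only with the ESC-derived libraries. Monocyte and macrophage markers summed to 349 to 669 CPM in ESC-derived and 732 to 792 CPM in LSK libraries. Eosinophil markers reached 1332 CPM in ESC-derived replicate 2, with 76.8 and 182 CPM in the other ESC-derived libraries. Prg2 alone gave 1139 CPM of the 1332, and Siglecf, another of these markers, lay below every LSK value in all ESC-derived libraries. LSK libraries held 4212 to 4937 CPM of plasma cell and 469 to 527 CPM of B cell markers. The ESC-derived libraries held 73 to 92.6 and 4.16 to 13.3 CPM of them. Jchain alone gave 3949, 4351 and 4568 CPM of the plasma cell sums in LSK replicates 1, 2 and 3. The part of such cells in the receptor values was not tested, and in bulk RNA a change in the number of cells of a type cannot be told apart from a change in RNA per cell.

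The question was which homing receptors the ESC-derived cells transcribe beside adult LSK cells. Of the 9 receptors, 6 rose in ESC-derived cells, 0 fell and 3 did not pass (edgeR quasi-likelihood test, adjusted p under 0.05 over 16211 genes). Over all tested genes, 30.0% passed, 14.8% as higher and 15.2% as lower. The count of receptors that fell was also 0 at an unadjusted p under 0.05, with DESeq2 and with limma-voom. Cxcr6 and Cxcr3 rose most among receptors with enough counts in both groups for a fold, and S1pr1, Ccr2, Cx3cr1 and S1pr5 also rose. The median log2 fold change of the 9 receptors was 2.57, beside -0.07 over all genes tested. All 9 passed the filter on low counts, S1pr5 and Cx3cr1 only with the ESC-derived libraries, where they are high. Both are among the 6 that rose, and passing in this way left little room for a call of lower.

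**Figure D1:**
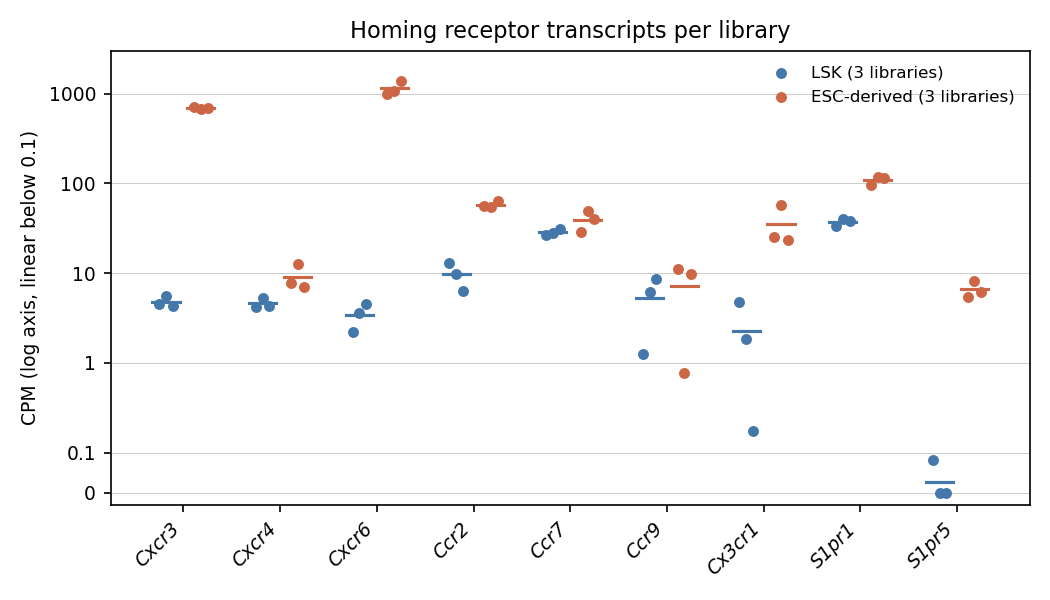
CPM of the 9 receptors in each library (points) with group means (bars), on a logarithmic axis that is linear below 0.1. The ESC-derived points of Cxcr3 and Cxcr6 lie between 682 and 1389 CPM, all LSK points of these genes below 6 CPM, and the groups overlap for Ccr7 and Ccr9.

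Short stretches are shown from Cxcr3, Cxcr6 and Cx3cr1, receptors that rose and hold a Runx motif within 250 bases before the RefSeq start. They are 5′ to 3′ on the gene's strand, from RefSeq on GRCm38.p6, with the motif in capitals:
Cxcr3, chrX:101734240-101734269, minus strand: tgtattcacctgACCACAggcgtggcagaa
Cxcr6, chr9:123806455-123806476, plus strand: acggaaacacagACCACAtcac
Cx3cr1, chr9:120068333-120068362, minus strand: taaagatagggtACCACAcaggaaaccaga
The first motif base lies 110, 10 and 54 bases before the RefSeq starts of Cxcr3, Cxcr6 and Cx3cr1, and for Cxcr3 and Cx3cr1 it falls within an exon of the GENCODE M21 models. The table of starts held 7 of the 9 receptors and not Ccr7 or S1pr1. The Runx letters TGTGGT, on either strand, occurred in 3 of these 7 and in 14% of 32851 promoter windows. Ccr2 and S1pr5 also rose, and their windows held no Runx letters. The E-box letters CACCTG occurred in Cxcr3 and Ccr9 (17.2% of all windows), where in Cxcr3 they abut the Runx letters, and the Klf letters CCNCACCC in Ccr9 (14.9%). The T-box letters GGTGTGA (3.33%) and the Foxo letters TGTTTAC (3.17%) occurred in none of the 7. Such matches describe letters and not binding.

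Among receptors of entry into inflamed tissue, Cxcr3 (ENSMUSG00000050232, chrX:101731535-101734269, minus strand), which binds the interferon-induced ligands CXCL9, CXCL10 and CXCL11, had 4.54, 5.63 and 4.29 CPM across the LSK libraries and 712, 682 and 691 CPM across the ESC-derived libraries, by replicate number here and below. The groups were far apart and the ESC-derived libraries close together. The means were 4.82 ± 0.711 and 695 ± 15.6 CPM, a log2 fold change of 7.17 ± 0.16 (SE) (edgeR adjusted p = 3.17e-06). Ccr2 (ENSMUSG00000049103, chr9:124101950-124113557, plus strand), the receptor for CCL2 on monocytes and activated T cells, had 13.1, 9.78 and 6.38 CPM across the LSK libraries and 56.2, 54.2 and 63.2 CPM across the ESC-derived libraries. Every ESC-derived library lay above every LSK library, and the log2 fold change was 2.57 ± 0.29 (edgeR adjusted p = 0.0012). Of 8 monocyte and macrophage markers, 0 passed as higher and 2 as lower with edgeR, beside 14.8% and 15.2% of all tested genes. At an unadjusted p under 0.05 and with DESeq2, 1 was higher, against 0 with limma-voom. F13a1, 1 of the 2 that were lower, passed the filter on low counts only with the LSK libraries. Of these 8 markers, 2 had ESC-derived values above every LSK value and 4 had them below, beside 22.6% and 27.2% of all tested genes. The part of such cells in the Ccr2 values was not tested. Of the 75-base stretches of the Ccr2 transcripts, 1.16% also occur elsewhere in the annotation.

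Cxcr6 (ENSMUSG00000048521, chr9:123806475-123811760, plus strand), the receptor for CXCL16 found on tissue-resident and memory T cells, NKT cells and innate lymphoid cells, had 2.19, 3.59 and 4.53 CPM across the LSK libraries and 998, 1059 and 1389 CPM across the ESC-derived libraries. ESC-derived replicate 3 was the highest, and the means were 3.43 ± 1.18 and 1149 ± 211 CPM. The log2 fold change of 8.39 ± 0.36 was the largest of the 8 receptors above the floor described below (edgeR adjusted p = 2.05e-05). Cxcr6 lies inside Fyco1, a gene on the other strand, with no shared exon. The libraries do not mark strand. Fyco1 had means of 8.23 and 16 CPM in the LSK and ESC-derived groups (edgeR adjusted p = 0.126), and the part of its reads in the Cxcr6 counts was not tested.

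The receptors tied to blood-borne effector cells, Cx3cr1 and S1pr5, also rose. Cx3cr1 (ENSMUSG00000052336, chr9:119901616-120069879, minus strand), the fractalkine receptor of monocytes, NK cells and effector T cells, had 4.74, 1.84 and 0.174 CPM across the LSK libraries and 25.2, 57.4 and 23.3 CPM across the ESC-derived libraries. The LSK values were spread widely and lay below every ESC-derived value, and ESC-derived replicate 2, the library with the most eosinophil marker RNA, was the highest. The log2 fold change was 3.97 ± 1.05 (edgeR adjusted p = 0.0296, range over 16 alternatives 3.9e-05 to 0.108). The call was lost without LSK replicate 2 (edgeR adjusted p = 0.108) and without ESC-derived replicates 1, 2 and 3 (0.0532, 0.0836 and 0.0527), with log2 fold changes of 3.43 to 4.19. S1pr5 (ENSMUSG00000045087, chr9:21242912-21248443, minus strand), an egress receptor of NK cells and effector T cells, had 4, 0 and 0 counts in the LSK libraries and 231, 346 and 293 counts in the ESC-derived libraries. Its LSK total was under the floor of 12 counts over a group, which stands for 3 sequenced fragments at about 4 counts each. The ratio of summed counts, each over its group's summed TMM-scaled library sizes, was therefore 231 with a 95% counting interval of 41.2 to 9200 (edgeR adjusted p = 0.00686), and its ESC-derived level stayed low at 6.62 ± 1.39 CPM.

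Of the receptors that go with recirculation, S1pr1 rose and Ccr7 did not pass. S1pr1 (ENSMUSG00000045092, chr3:115710433-115715072, minus strand), the egress receptor of naive and memory lymphocytes, had 33.8, 40.1 and 38.2 CPM across the LSK libraries and 95.6, 119 and 114 CPM across the ESC-derived libraries. The groups did not overlap, and the log2 fold change was 1.55 ± 0.15 (edgeR adjusted p = 0.000586). Ccr7 (ENSMUSG00000037944, chr11:99144196-99155077, minus strand), the lymph node receptor for CCL19 and CCL21, had 26.9, 27.9 and 30.7 CPM across the LSK libraries and 28.6, 49.1 and 39.7 CPM across the ESC-derived libraries. The groups overlapped, and the log2 fold change of 0.46 ± 0.24 missed the threshold (edgeR adjusted p = 0.2).

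Neither the marrow retention receptor nor the gut and thymus receptor passed. Cxcr4 (ENSMUSG00000045382, chr1:128588199-128592293, minus strand) had 4.19, 5.34 and 4.33 CPM in LSK cells, close to the LSK level of Cxcr3, and 7.68, 12.6 and 7.08 CPM across the ESC-derived libraries. Its groups did not overlap, but the log2 fold change of 0.98 ± 0.41 missed the threshold (edgeR adjusted p = 0.12, range over 16 alternatives 0.0568 to 0.285). In all, 7 of the 9 receptors had ESC-derived values above every LSK value, and 0 had them below. The 7 include Cx3cr1 and S1pr5, which passed the filter on low counts only with the ESC-derived libraries. Over all tested genes the groups did not overlap for 49.8%, with 22.6% higher and 27.2% lower. Ccr9 (ENSMUSG00000029530, chr9:123678439-123784330, plus strand), the receptor for CCL25, had 1.26, 6.22 and 8.51 CPM across the LSK libraries and 11, 0.779 and 9.69 CPM across the ESC-derived libraries. A single low library in each group, LSK replicate 1 and ESC-derived replicate 2, set the spread, and the log2 fold change was 0.43 ± 1.03 (edgeR adjusted p = 0.801). Its fold change turned slightly negative without LSK replicate 1 (-0.05) or ESC-derived replicate 1 (-0.02). Ccr9 is also the receptor whose counts are least certain, since 19.3% of the 75-base stretches of its transcripts occur in overlapping transcripts of other genes.

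Levels of different receptors were compared as CPM per kilobase of exon. In LSK cells Ccr7 led with 14.4 ± 1.02, followed by S1pr1 with 12.3 ± 1.06, and these neighbours did not overlap. Cxcr3 (2.78), Cxcr4 (2.56), Cxcr6 (1.78) and Ccr2 (1.44) followed, and each overlapped the next. Ccr9 (0.519) and Cx3cr1 (0.5) overlapped too, and S1pr5 was last with 0.011. In ESC-derived cells the order was Cxcr6 with 595 ± 109, Cxcr3 with 401 ± 9.02, S1pr1 with 36 ± 4.06 and Ccr7 with 19.8 ± 5.18, with no overlap between neighbours. Ccr2 (8.56), Cx3cr1 (7.83) and Cxcr4 (5.04) overlapped in turn, and S1pr5 (2.65) and Ccr9 (0.698) stood below them. The order was the same with the longest transcript as the length.

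The share of each receptor in its family was then compared. Over 23 chemokine receptor genes, the summed level was 45.8 to 57.8 CPM per kilobase in LSK libraries and 995 to 1198 in ESC-derived libraries. Cxcr3 and Cxcr6 together made up 6.67, 8.84 and 10.5% of that sum in the LSK libraries, by replicate number, against 93.3, 91.8 and 93.4% in the ESC-derived libraries. The LSK sum was led by Ccrl2, an atypical receptor that binds chemerin (26.7 to 40.5%), and Ccr7 (24.1 to 34%), while Ccr7 held 1.46 to 2.42% of the ESC-derived sum. The sphingosine 1-phosphate receptors differed in amount, with 33 to 39.9 CPM per kilobase in LSK and 103 to 134 in ESC-derived libraries, more than in make-up. S1pr4, the haematopoietic member of that family, held 57.1 to 70.2% in LSK and 58.9 to 74.1% in ESC-derived libraries, and S1pr1 held 27.8 to 38% and 23.4 to 36.6%. S1pr5 made up at most 0.0827% in LSK and 1.64 to 2.79% in ESC-derived libraries. These shares describe the libraries and were not tested.

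**Figure D2:**
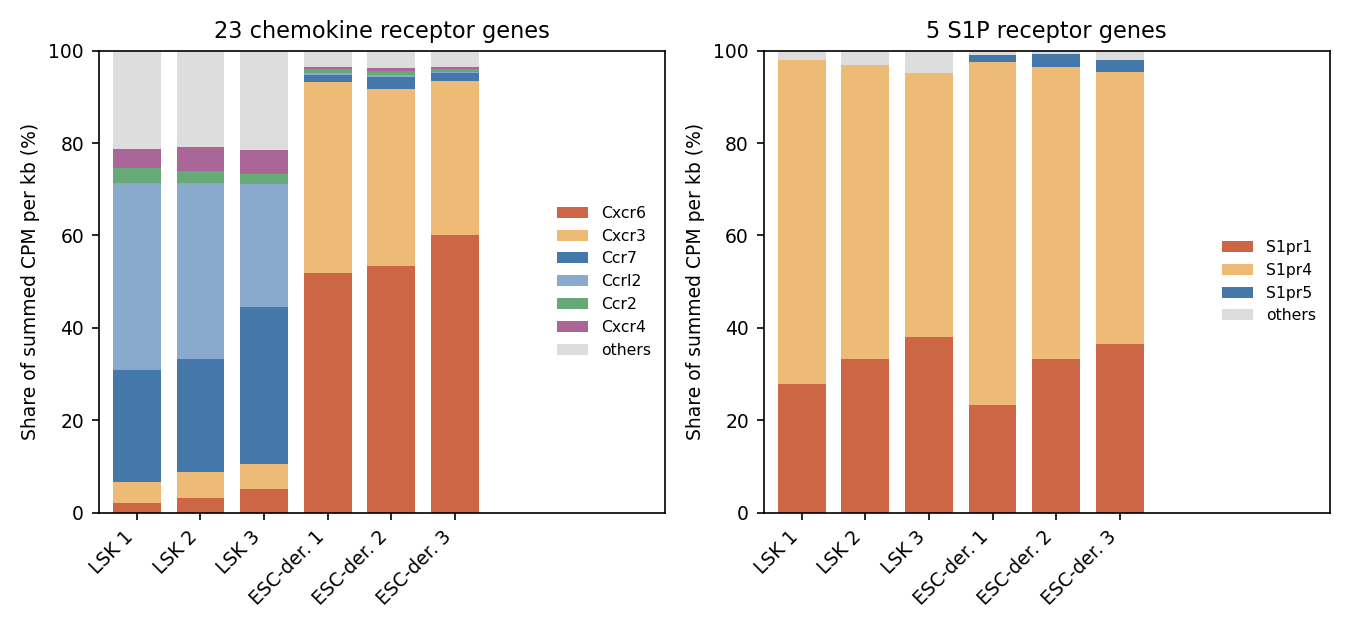
Share of each receptor in the summed CPM per kilobase of 23 chemokine receptor genes (left) and 5 sphingosine 1-phosphate receptor genes (right), 1 bar per library. Cxcr6 and Cxcr3 fill 91.8 to 93.4% of the ESC-derived bars on the left, whereas the shares of S1pr1 and S1pr4 overlap between the groups on the right.

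Of 16 other chemokine receptors, 11 were tested, 3 rose, 1 fell and 7 did not pass (median log2 fold change 0.12), beside 30.0% of all tested genes that passed in either direction. Ccr8 (3.97 ± 0.56) and Ccr4 (2.46 ± 0.33), receptors of skin-homing and regulatory T cells, and Ccr6 (2.67 ± 0.63), a receptor of mucosal lymphocytes, rose. The Ccr6 call was lost without any LSK library and without ESC-derived replicate 3 (edgeR adjusted p = 0.0506 to 0.0764). Ccrl2 fell by 2.03 ± 0.37 (log2), from 49.4 ± 15.3 to 12.1 ± 4 CPM. Xcr1, a dendritic cell receptor, had group means of 10.4 (LSK) and 7.29 CPM (ESC-derived) and did not pass (edgeR adjusted p = 0.308).

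Of 14 other receptors for lipids or related ligands, 12 were tested, 6 rose, 1 fell and 5 did not pass (median log2 fold change 1.15). Among all tested genes, 14.8% rose and 15.2% fell. Gpr34, 1 of the 6 that rose, passed the filter on low counts only with the ESC-derived libraries. Lpar1, the 1 that fell, passed it only with the LSK libraries. Passing in this way left little room for a call in the other direction. S1pr4 rose from 57.3 ± 11.2 to 186 ± 47 CPM (1.70 ± 0.23), and Gpr183, the oxysterol receptor EBI2 that positions lymphocytes in follicles, from 13.9 ± 1.06 to 72.2 ± 16.7 CPM (2.38 ± 0.22). Gpr174 and Gpr34, receptors for lysophosphatidylserine, reached 17 ± 4.04 and 14.7 ± 1.98 CPM across the ESC-derived libraries. Gpr34 had 8 LSK counts, all in replicate 3, and its ratio of depth-scaled summed counts was 257 (95% counting interval 70.9 to 2131). P2ry10 (1.34 ± 0.28) and Lpar6 (0.95 ± 0.21) rose by smaller amounts, and both calls were lost without LSK replicate 2 (edgeR adjusted p = 0.0727 and 0.0671), that of Lpar6 also without LSK replicate 1. Lpar1, a lysophosphatidic acid receptor, had 340 LSK and 4 ESC-derived counts, and its ratio was 79.9 in favour of LSK cells (95% counting interval 14 to 3193). The Lpar1 call was lost without any LSK library and without ESC-derived replicate 2 or 3 (edgeR adjusted p = 0.0558 to 0.106). Gpr132 averaged 11.2 and 10.5 CPM and did not pass.

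**Figure D3:**
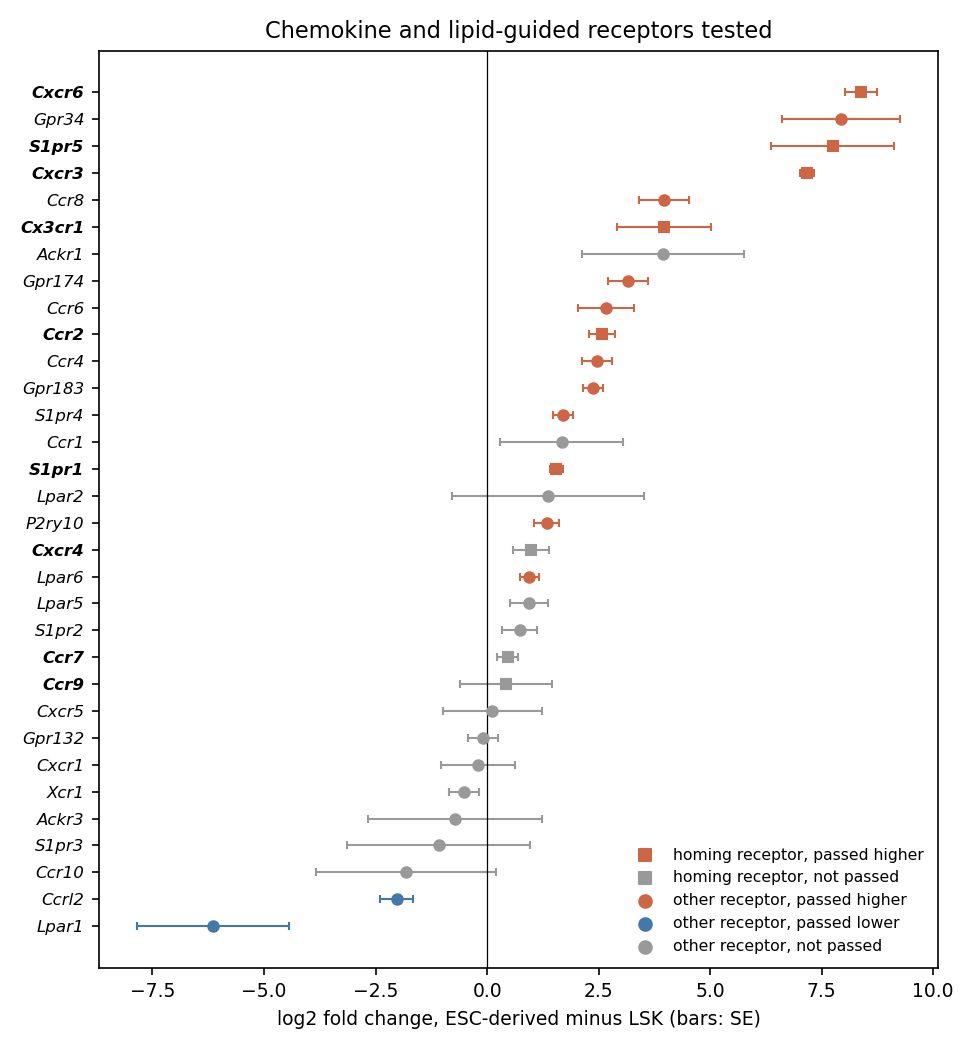
Log2 fold change, ESC-derived minus LSK, with its SE for the 9 homing receptors (squares, bold names) and the other tested chemokine and lipid-guided receptors (circles). Colours mark receptors past the threshold, and the fitted values of S1pr5, Gpr34, Ackr1 and Lpar1 depend on the prior count because a group had 12 counts or fewer.

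Of the 9 receptors, 5 lie on chromosome 9, and Ccr9, Cxcr6 and Ccr2 belong to the chemokine receptor cluster there. Of 10 protein-coding genes that overlap the span from the start of Ccr9 to the end of Ccr2, 7 were tested, 2 rose and 1 fell. The share of all tested genes that passed in either direction was 30.0%. Cxcr6 and Ccr2 rose, while Xcr1 and Ccr1, which lie between Cxcr6 and Ccr2, and Ccr9 did not pass. Ccr3, the eotaxin receptor of eosinophils, had 85 LSK counts and 0 ESC-derived counts and was not tested. Lztfl1, inside Ccr9 on the other strand and chosen after its values were seen, fell from 23.4 to 8.71 CPM (log2 fold change -1.42 ± 0.37, edgeR adjusted p = 0.0283). Leaving out any library other than ESC-derived replicate 3 ended that call.

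**Figure D4:**
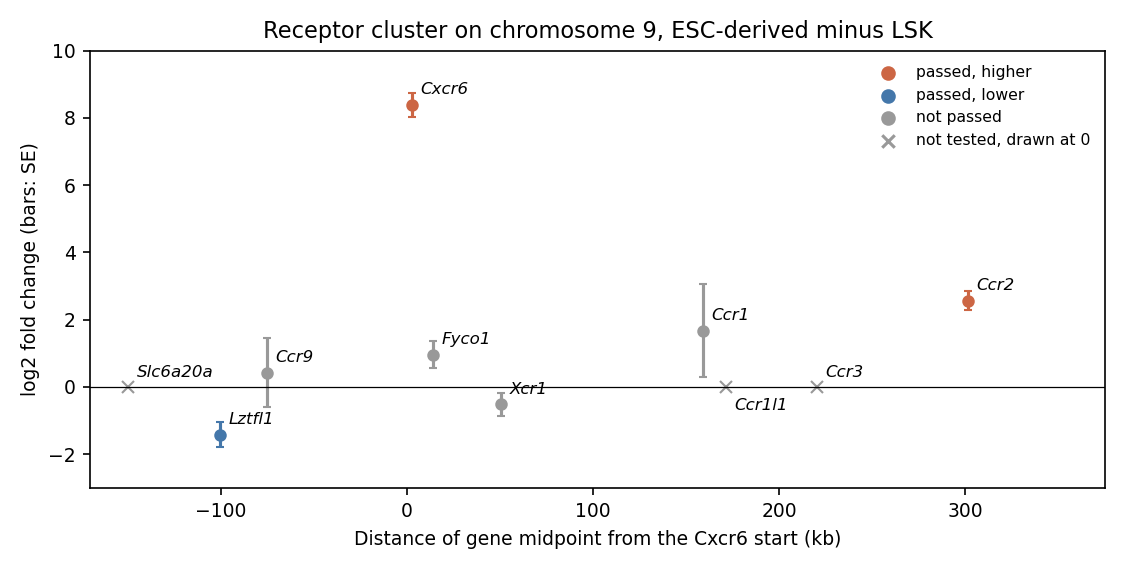
Log2 fold change with its SE for the protein-coding genes of the chromosome 9 receptor cluster, against the distance of each gene's midpoint from the start of Cxcr6 in kilobases. Cxcr6 stands at 8.39 between Ccr9 and Xcr1, neither of which passed, and Ccr2 stands at 2.57, while crosses at 0 mark the 3 genes that were not tested.

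The genes with the nearest pattern were sought for each receptor that reached 10 CPM in a group, as the smallest root mean square difference in centred log2(CPM + 1) over the 6 libraries among 9202 named genes. Cxcr3 was nearest to Samd3 (0.048) and Trbv31 (0.105), the latter a T cell receptor segment, and Cxcr6 to Tcrg-C2 (0.172) and Trbv5 (0.287), also T cell receptor segments. Ccr2 was nearest to Cysltr2 (0.136) and Ubxn11 (0.153), Ccr7 to Cdca2 (0.077) and Arhgap1 (0.096), and S1pr1 to Cdk2ap2 (0.082) and Gm10250 (0.085). Cx3cr1 had the loosest matches, AB124611 (0.28) and Klra1 (0.458), the latter an NK cell receptor gene. With 2 groups of 3, this likeness is mostly the difference between the groups. The added 1 also narrows differences at low levels. Samd3 averaged 0.0584 and 132 CPM in the LSK and ESC-derived groups, where Cxcr3 averaged 4.82 and 695 CPM.

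The machinery below the receptors mostly rose, and its brakes moved both ways. Of 24 genes of receptor signalling and motility, 15 rose, 1 fell and 8 did not pass (median log2 fold change 0.8). The shares of all tested genes were 14.8% higher and 15.2% lower. Coro1a, an actin regulator of T cell egress, rose from 654 ± 40.1 to 3091 ± 313 CPM (log2 fold change 2.24 ± 0.11), and Rac2, a haematopoietic small GTPase, from 835 ± 33.7 to 3295 ± 290 CPM (1.98 ± 0.10). Gnaq, a G protein subunit outside the Gi class used by chemokine receptors, fell by 2.64 ± 0.65 on the log2 scale. The Gnaq call was lost without any of the LSK libraries (edgeR adjusted p = 0.0515 to 0.112). Of 15 genes that restrain these receptors, 5 rose, 4 fell and 6 did not pass, beside the same shares of all tested genes. Grk3 and Rgs18, among the 4 that fell, passed the filter on low counts only with the LSK libraries, where they are high. Passing in this way left little room for a call of higher. Cd69, whose protein removes S1PR1 from the surface, rose by 1.07 ± 0.08, from 802 ± 31 to 1678 ± 48.2 CPM, beside the rise of S1pr1. Rgs14, a regulator of G protein signalling, rose by 2.87 ± 0.22, and Rgs2, of the same family, and Arrb1, a beta-arrestin, fell by 2.50 ± 0.15 and 3.75 ± 0.66 on the log2 scale. Without LSK replicate 2, the genes that rose numbered 2 in this group and 11 in the signalling group. Over all tested genes, 1466 were then higher, against 2395 with all 6 libraries.

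Of 10 transcription factors known to act on receptor genes, 9 rose and 1 fell, beside 14.8% and 15.2% of all tested genes. Zfp683, 1 of the 9 that rose, passed the filter on low counts only with the ESC-derived libraries, where it is high. Tbx21, which encodes T-bet, an activator of Cxcr3 and S1pr5, had 1.05, 1.84 and 1.31 CPM across the LSK libraries and 108, 142 and 122 CPM across the ESC-derived libraries (log2 fold change 6.47 ± 0.29, edgeR adjusted p = 2.33e-05). Id2 rose from 95.2 ± 2.53 to 4093 ± 356 CPM (5.43 ± 0.12). Klf2, an activator of S1pr1, rose by 1.54 ± 0.10, from 133 ± 5.64 to 387 ± 30 CPM, and Runx3 by 1.33 ± 0.21, from 28.3 ± 2.18 to 71 ± 16.9 CPM. Klf2 and Runx3 were chosen after their values were seen. Zeb2, which acts with T-bet in effector cells, fell by 1.84 ± 0.39 on the log2 scale, a call lost without LSK replicate 2 (edgeR adjusted p = 0.0554). T cell markers rose with these factors and with Cxcr3 and Cxcr6, and their part was not tested.

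The ligands were scarce in both groups. Of 13 ligand genes of these receptors, 9 were tested, and 0 passed with edgeR in either direction, beside 30.0% of all tested genes. At an unadjusted p under 0.05, 0 were higher and 1 lower, as with DESeq2, and limma-voom called 1 higher and 1 lower. Cxcl10, the most abundant, had 13.7, 25.9 and 30.4 CPM in the LSK libraries against 29.9, 29.4 and 23.6 CPM in the ESC-derived libraries, and the groups overlapped. Of 11 genes of sphingosine 1-phosphate metabolism and transport, 9 were tested, 0 rose and 2 fell (beside 14.8% and 15.2% of all tested genes). The counts were the same at an unadjusted p under 0.05, with DESeq2 and with limma-voom. Both genes that fell, Spns2 and Sphk1, passed the filter on low counts only with the LSK libraries, where they are high. Passing in this way left little room for a call of higher. Spns2, which exports the lipid from cells, fell from 30, 24.6 and 16.3 CPM in LSK cells to 1.14, 0 and 0.169 CPM across the ESC-derived libraries (edgeR adjusted p = 0.0175), and the call was lost without LSK replicate 1 or 2 or ESC-derived replicate 3 (0.0546, 0.0563 and 0.053). Sphk1, a kinase that makes the lipid, had 10 ESC-derived counts and a ratio of 23.8 in favour of LSK cells (95% counting interval 7.87 to 250). The Sphk1 call was lost without any library other than ESC-derived replicate 3 (edgeR adjusted p = 0.0758 to 0.143).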

How the data were processed

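Per the labels' protocols, cDNA was made from sorted cells with the SMART-Seq v4 kit, which does not mark strand, and libraries with Nextera XT. HISAT, StringTie and mm10 are named, per the submitters' processing notes; their settings, versions and annotation were not given in the sources used here. Estimated counts for each gene ID, written as whole numbers, were what the authors deposited; 40.1 to 47.2% of values from 1 to 20 were divisible by 4, so counts overstate fragments. The header names the 6 columns in 1 field, and columns were assigned in that order. Of the IDs, 55141 matched GENCODE M21 (mm10 assembly), which gave symbols, positions and exon lengths.

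Counts were filtered with filterByExpr, TMM-scaled and fitted in edgeR 4.0.16 under R 4.3.3 (robust quasi-likelihood F test, two-sided, Benjamini-Hochberg over 16211 genes, threshold 0.05), ESC-derived minus LSK, with no block. The fit was tested on simulated data. The SE is the log2 fold change over the root of F. Counting intervals are exact binomial on counts divided by 4 and, like the floor, cover counting error only. Alternatives used DESeq2 1.42.0, limma-voom (limma 3.58.1), other scalings and filters, thinning, division by 4, a replicate block and each library left out. The receptors, lists and tests were chosen with earlier results of these data known. Named genes were all 9 receptors, up to 2 higher and 2 lower of each list by adjusted p (the most abundant where none passed), and other receptors that passed or reached 10 CPM. Grk3, Rgs18 and Zfp683 were named for the filter on low counts, as were some markers. The cell type lists comprised T cell, NK cell, monocyte and macrophage, neutrophil, eosinophil, dendritic cell, B cell, plasma cell, and stem and progenitor cell markers; dendritic cell markers summed to 148 to 168 CPM in LSK and 103 to 139 CPM in ESC-derived libraries. Promoter windows came from RefSeq; receptor proteins were not analysed here, and 1 gene was left out of the list of other chemokine receptors and is not reported here.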

Additional observations from a re-analysis of the deposited data

How the results depend on the processing

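Of 43 genes followed, 30 kept their direction and side of the threshold in every alternative that gave them a value (16, or 14 for Cxcl12 and Lpar1). The 30 include Foxo1, Eomes, Zfp683 and Cxcl12, whose values are not given above. The 9 receptors gave 6 rises and 0 falls in each, except 5 rises without LSK replicate 2 or any ESC-derived replicate. Leaving out each library gave 1466 to 2163 higher and 1250 to 2440 lower genes over all tested; the lowest came without LSK replicate 2. In the lists it gave falls of 1 to 2 other chemokine receptors, 0 to 1 other lipid-guided receptors, 0 to 1 signalling genes and 0 to 1 transcription factors, and 2 to 6 rises among desensitisation genes. Falls among signalling genes numbered 2 with DESeq2, 2 with library totals only and 0 with the replicate block; falls among lipid-guided receptors numbered 0 with no low-count filter, the stricter filter or values divided by 4. Scaling by library totals only moved the median log2 fold change of all genes from -0.066 to -0.315, and of the genes called 36.5% were then higher, against 49.3%. The replicate block left 1488 lower genes and 3 desensitisation rises and ended the calls of Ccr6 (adjusted p = 0.0807), Sphk1 (0.0915), Gnaq (0.0739) and Lztfl1. Same-numbered libraries had deviations correlated at 0.004, 0.054 and 0.006, so the numbers were not taken to pair them. Leaving out each library gave log2 fold changes of -0.05 to 0.96 for Ccr9, negative when replicate 1 of LSK (-0.05) or of the ESC-derived group (-0.02) was left out; -0.03 to 0.47 for Cxcl10, negative without LSK replicate 1; and -0.23 to 0.13 for Gpr132, positive without ESC-derived replicate 1. The cause of these changes was not tested beyond the smaller number of libraries. Depth limits S1pr5, Gpr34, Lpar1 and Sphk1, with 12 counts or fewer in a group.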
